A study of Homo sapiens with 8 samples.

Results

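HT29 is an established cell line from a human colon adenocarcinoma, and the comparison described here is between HT29 cells that were sorted as positive or as negative for the transporter ABCB5. It consists of 2 of the 8 arrays of the study, 1 labelled ABCB5-positive and 1 labelled ABCB5-negative, chosen by their labels alone. The difference of a gene is its log2 level on the positive array minus its level on the negative array, so that a difference of 1 is a doubling and 0.58 is 1.5-fold. With 1 array a side there is no replicate, so no difference within HT29 carries an error or a test. Differences of the same kind from 3 other lines served as a guide to noise, though they can also hold differences between the sorted cells of those lines. Genes are described as measured higher or lower on the positive array.

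The study hybridised RNA of sorted cells to Affymetrix Human Gene 1.0 ST arrays, whole-transcript arrays on which a probe set joins several short probes of a gene. Each of the lines COLO741, SW620, HT29 and HCT116 gave 1 ABCB5-positive and 1 ABCB5-negative array. Cultures were kept in serum-containing RPMI with penicillin and streptomycin and were separated by flow cytometry with a monoclonal antibody against ABCB5, and no drug or genetic change is named for any group. The labels call COLO741 and HCT116 colon carcinoma, SW620 a lymph node metastasis of colon carcinoma and HT29 colon adenocarcinoma, whereas the design text lists SW480 where the sample labels have SW620. Sample labels are used throughout, and the mismatch of names could not be resolved here.

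ABCB5 belongs to the ATP-binding cassette family, membrane proteins that use ATP to move lipids, drugs and other molecules across membranes. It is best known from melanoma and from stem cells of the cornea, where it marks a small share of cells, and it has been tied to survival under drug treatment. HT29 cells keep several features of intestinal epithelium, since parts of a culture can take on traits of absorptive enterocytes or of mucus-secreting goblet cells. A sort on a surface protein compares cells within such a culture, and on an array of pooled cells a higher level can come from more cells with a transcript or from more transcript per cell, which cannot be told apart.

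The transcript of the sorted protein was at background in HT29. ABCB5 measured 5.36 on the negative array and 5.24 on the positive array, a difference of -0.12 on the log2 scale. Both values lie below 5.73, the median level of 360 olfactory receptor probe sets, which stand here for genes that colon cells mostly do not use. Some olfactory receptor genes were bright in single lines, such as OR51B4 in HCT116 at 12.1 and 12.0. Neither HT29 array thus gives a check of the sort at the transcript level. In COLO741, the line with a bright signal, ABCB5 went from 9.42 on the negative to 8.14 on the positive array, opposite to the labels.

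HT29 carried the transcripts expected of colon epithelium on both arrays. EPCAM, the epithelial adhesion molecule, measured 13.77 on the negative and 13.71 on the positive array, and the keratin gene KRT8 measured 14.75 and 14.73. KRT20, a keratin of differentiated gut epithelium, measured 12.87 and 13.01. Of the 14 colon epithelium markers tested, 12 were above 7.50 on both arrays, where 7.50 is the level under which 95% of the olfactory receptor probe sets lay and serves here as the upper edge of background. LGALS4, a galectin of the gut lining, measured 14.05 and 13.94. The homeobox gene CDX2 measured 9.03 and 9.15, against 8.66 and 8.46 in COLO741. Its relative CDX1 measured 8.74 on both HT29 arrays, against 8.74 and 8.72 in COLO741. Both genes count among the 12, though their levels do not set HT29 apart from COLO741.

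Markers of other cell types had medians near 0 in HT29. Among 27 leukocyte markers, 14 measured higher and 13 lower, with a median difference of 0.01, and the T cell receptor component genes CD3D and CD3E stayed at 6.74 and 6.71 on the negative array and 6.55 and 6.39 on the positive array. LYZ, a lysozyme gene that gut cells also use, was bright at 14.42 and 14.27. CD68 at 10.7 and 10.6, CORO1A at 9.88 and 10.02 and TYROBP at 9.44 and 9.23 were among others above 7.50. Among 19 fibroblast and endothelial markers 12 measured higher and 7 lower (7 and 12 with each array centred on its median), again with a median of 0.01. The 17 melanocyte markers had a median of 0.00. MLANA at 6.24 and 6.36, TYR at 5.44 and 5.41 and PMEL at 7.14 on both arrays lay in the background range. Above 7.50 on both arrays were SOX10 at 8.53 and 8.38, MC1R at 8.03 and 8.10 and CDK2 at 11.98 and 11.92. The part of other cell types in single differences was not tested. COLO741 and SW620 differed from HT29 in such markers. On the COLO741 negative array MLANA measured 13.49, PMEL 14.49 and EPCAM 6.43, though KRT18 measured 11.71. In SW620 the leukocyte markers CYBB, FCER1G, CD14 and CD53 were 3.22, 2.45, 1.37 and 1.27 higher on the positive array. Only CD3E, CD3G, SPI1, C1QA and C1QB of that list were lower in SW620, with C1QA the lowest at -0.35. Values of these lines are therefore a rough guide to noise.

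Over all 33297 probe sets the HT29 arrays correlated at 0.996, within the range of 0.993 to 0.996 of the 4 line pairs. Against the ABCB5-negative arrays of the other lines, the negative HT29 array correlated at 0.931 to 0.962. Array medians lay between 8.03 and 8.10. No scan time or other batch is named in the labels.

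Among the 16910 genes tested, 209 (1.24%) measured at least 1.5-fold higher on the positive HT29 array and 65 (0.384%) at least 1.5-fold lower. The larger differences therefore leaned to the higher side, although over all genes 48.6% were above 0 and 51.4% below. Past 2-fold there were 46 genes higher and 4 lower. In COLO741 the counts were 679 higher (4.02%) and 272 lower (1.61%), in SW620 302 (1.79%) and 108 (0.639%), and in HCT116 49 (0.29%) and 24 (0.142%). Differences spread over genes with an SD of 0.32 for COLO741, 0.24 for SW620, 0.20 for HT29 and 0.15 for HCT116. HT29 thus stood below COLO741 and SW620 and above HCT116 by spread and by counts.

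Many of the HT29 calls lay at or near background. Of the 209 higher genes, 118 were above 7.50 on both HT29 arrays, 36 on 1 array and 55 on none, and of the 65 lower genes the numbers were 32, 14 and 19. The share past 1.5-fold was 1.96% of 3869 genes with a mean level over the 8 arrays under 7.50, 2.20% of 6716 genes between 7.50 and 10 and 0.791% of 6325 genes above 10. Folds are given below only where both HT29 arrays exceeded 7.50, since a level in the background range makes a fold too small by an unknown amount.

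**Figure D1:**
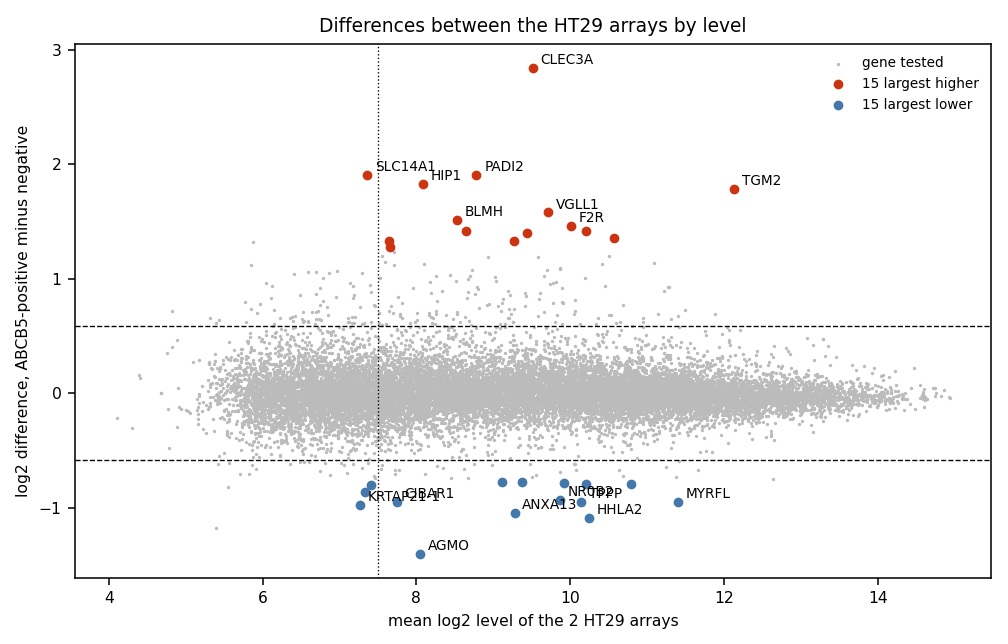
Difference between the HT29 arrays (log2, positive minus negative) against the mean log2 level of both arrays, 1 point per gene tested. Dashed lines mark 1.5-fold and the dotted line the 95th percentile of olfactory receptor probe sets at 7.50. CLEC3A at 2.84 stands apart above the other genes, and the largest lower difference is -1.40 for AGMO.

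Set against the other lines, 176 of the higher genes (1.04% of those tested) and 53 of the lower genes (0.313%) also had a larger difference in size in HT29 than in each of the other 3 lines. A larger difference than in each other line was found for 18.3% of all genes in HT29, 42.5% in COLO741, 26.4% in SW620 and 12.8% in HCT116. The 209 higher genes had the same sign in COLO741 for 124, in SW620 for 122 and in HCT116 for 100. Past 1.5-fold the same way were 30 of them in COLO741, 15 in SW620 and 0 in HCT116. Of all genes tested, 4.02%, 1.79% and 0.29% passed 1.5-fold higher in those lines. The 65 lower genes had the same sign for 25, 32 and 33 genes in that order, and 1, 4 and 2 passed 1.5-fold the same way. Lower past 1.5-fold were 1.61%, 0.639% and 0.142% of all genes tested. Genes picked for a large HT29 difference can be smaller elsewhere by that choice alone, so these counts are a description only. No share of same signs over all genes is given here.

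A direct comparison of the HT29 difference with the mean of the other 3 was made with limma, in which HT29 is a lone sample assumed to vary like the other lines. At a Benjamini-Hochberg adjusted p of 0.05 it called 0 of 16910 genes (0%), while 447 (2.64%) had an unadjusted p under 0.05, 279 of them higher and 168 lower. The lowest adjusted p was 0.0611, for CLEC3A. Each line pair may stem from 1 culture, since the labels name none, so these p-values rest only on how the other 3 pairs spread, technical spread included. HT29, as a lone pair, adds nothing to that spread.

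The largest difference in HT29 was in CLEC3A, a secreted C-type lectin known from cartilage, on chromosome 16. CLEC3A measured 8.09 on the negative and 10.93 on the positive HT29 array, 7.16-fold higher. The 6 arrays of the other lines stayed between 6.08 and 6.38, within the background range, and their differences for CLEC3A were -0.24 in COLO741, -0.03 in SW620 and -0.16 in HCT116. CLEC3A was therefore above background in HT29 only, and the HT29 arrays did not overlap with the others. The limma value for CLEC3A, 2.98 ± 0.17 (SE), therefore sets HT29 against lines at background. Its SE joins the spread of CLEC3A at background with a spread shared by all genes tested. Next to it stood VGLL1, a cofactor of the TEAD transcription factors, which measured 8.92 and 10.50 in HT29 (2.99-fold) against 6.66 to 6.95 in the other arrays. PADI2, an enzyme that turns arginine in proteins into citrulline, measured 7.83 and 9.74 (3.75-fold) against 7.12 to 7.61 elsewhere.

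TGM2, a transglutaminase that crosslinks proteins and binds GTP, had the largest difference among genes above 10 on both HT29 arrays and was higher in every line. It measured 11.24 and 13.02 in HT29, 3.45-fold higher, with differences of 1.44 in COLO741, 0.83 in SW620 and 0.42 in HCT116. The positive HT29 array at 13.02 was above all 7 other arrays, of which the highest was COLO741 ABCB5-positive at 12.66. By limma the TGM2 difference was 0.89 ± 0.38 (SE) above the mean of the other lines, with an adjusted p of 1.

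A further group of the largest differences was made of genes that HT29 used less than the other lines. BLMH, the protease bleomycin hydrolase, measured 7.77 and 9.29 in HT29 (2.85-fold), while the other 6 arrays lay between 11.36 and 11.90. RCN1, a calcium-binding protein of the endoplasmic reticulum, measured 9.49 and 10.91 (2.67-fold) against 11.82 to 12.37 elsewhere. NDST1, which sulfates heparan sulfate chains, measured 8.60 and 9.93 (2.51-fold) against 9.92 to 11.60. For these genes the positive HT29 array was nearer to the other lines than the negative array was, though for BLMH and RCN1 it stayed below all of them.

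HIP1 and KLHL5 belong to the same group but have a negative array in the background range. HIP1, an adaptor of clathrin-coated vesicles, measured 7.17 on the negative array and 1.83 higher on the positive array, with the other arrays at 10.07 to 11.56. The mean of all HIP1 probe sets gave a difference of 0.98 in place of 1.83, so the probe sets of HIP1 disagree. KLHL5, of the kelch family, measured 6.98 and 8.31 against 9.25 to 10.69.

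The 15 largest differences per direction were taken among genes with the brighter HT29 array above 7.50. The rest of the 15 higher ones had a mean HT29 level within the range of the other lines. F2R, the thrombin receptor of the protease-activated family, measured 9.27 and 10.74 (2.76-fold), with differences of 0.05, -0.08 and -0.02 in COLO741, SW620 and HCT116. EPHB6, an Eph receptor without kinase activity, measured 9.89 and 11.25 (2.56-fold). NNMT, which methylates nicotinamide, measured 8.74 and 10.14 (2.64-fold), with 0.87 in COLO741. MYEF2, a nucleic acid-binding repressor, measured 7.94 and 9.36 (2.67-fold), with 1.04 in COLO741 and -0.36 in HCT116. These 4 genes were above 7.50 on both HT29 arrays, and NNMT and MYEF2 had the same sign in COLO741.

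SLC14A1, a urea transporter, measured 6.41 and 8.32 in HT29, from background to above it, with the opposite sign in SW620, where the difference was -1.59. MCUB, a subunit of the mitochondrial calcium uniporter, measured 7.02 and 8.30 and was the 1 gene of these 15 whose difference was larger in another line, at 1.81 in COLO741. Of the 15 genes, 11 were above 7.50 on both HT29 arrays.

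**Figure D2:**
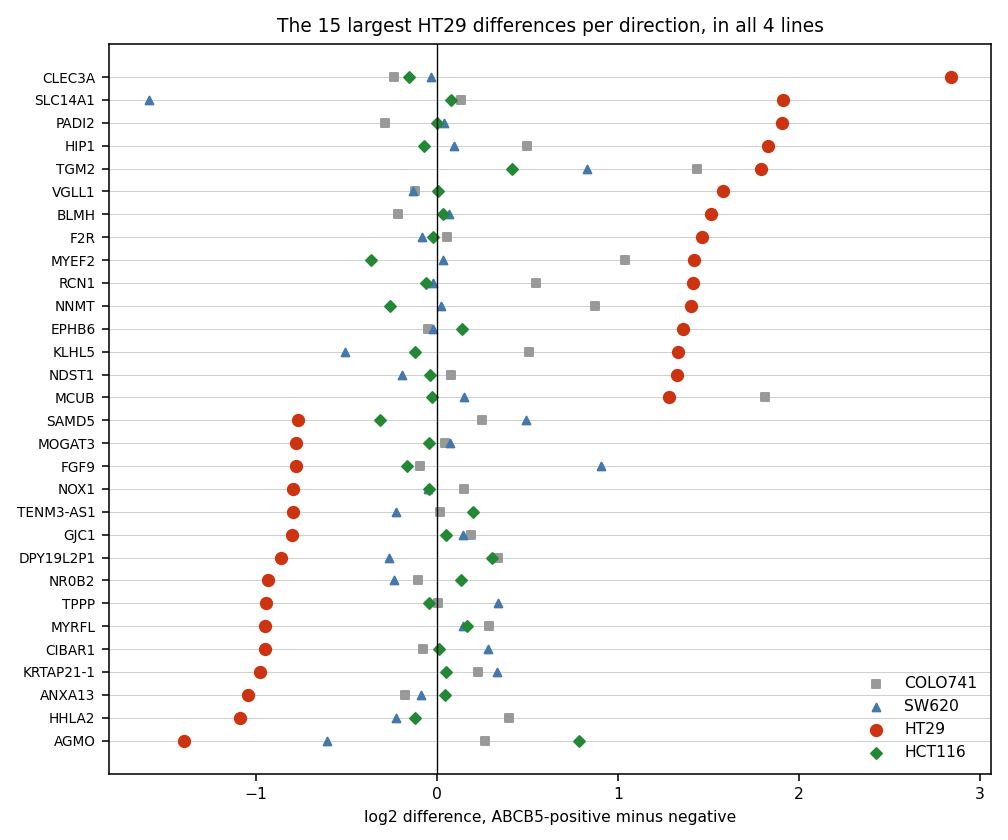
Differences (log2, positive minus negative) of the 15 largest HT29 genes per direction, 1 row per gene and 1 marker per line. Only genes with the brighter HT29 array above 7.50 were ranked. The red HT29 markers lie outside the markers of the other lines on the higher side for 14 of 15 genes, with MCUB in COLO741 as the exception, and on the lower side for all 15, though FGF9 has a larger difference of the opposite sign, 0.90, in SW620.

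On the lower side the leading genes, with the brighter HT29 array above 7.50, were mostly those that HT29 used more than the other lines. HHLA2, a B7-type surface protein that T cells bind, measured 10.78 on the negative and 9.70 on the positive array (2.12-fold lower), while the other arrays were at background, between 5.18 and 5.64. ANXA13, an annexin of intestinal epithelium, measured 9.80 and 8.75 (2.06-fold lower), and NOX1, the NADPH oxidase of colon epithelium, 11.19 and 10.40 (1.73-fold lower). The other arrays lay at 6.14 or less for ANXA13 and 6.39 or less for NOX1, so these genes were above background in HT29 only.

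MYRFL, a relative of the myelin regulatory factor, measured 11.88 and 10.93 (1.93-fold lower), with the other arrays between 5.36 and 6.26. NR0B2, an orphan nuclear receptor that holds back bile acid synthesis, measured 10.34 and 9.40 (1.91-fold lower) against 7.63 to 8.16. TPPP, which promotes tubulin polymerisation, measured 10.62 and 9.67 (1.93-fold lower) against 8.48 to 8.87. The HT29 arrays were both above all 6 others for MYRFL, NR0B2 and TPPP. MOGAT3, an acyltransferase of fat absorption, measured 9.50 and 8.73 (1.71-fold lower) and SAMD5 9.76 and 8.99 (1.70-fold lower), and the antisense transcript TENM3-AS1 measured 10.60 and 9.81.

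AGMO, the enzyme that cleaves ether lipids, had the largest lower difference, from 8.75 to 7.35, the latter in the background range. Its differences in the other lines were 0.27, -0.61 and 0.79. COLO741 and HCT116 lay in the background range for AGMO, at 7.10 or less, while SW620 measured 10.58 and 9.97, lower as in HT29. FGF9, a growth factor, measured 10.31 and 9.53 in HT29 but had a larger difference of the opposite sign, 0.90, in SW620. CIBAR1 measured 8.22 and 7.27, and GJC1, a connexin of gap junctions, 7.81 and 7.01, both with a positive array in the background range and with the other lines brighter. The keratin-associated gene KRTAP21-1 at 7.76 and 6.78 and the pseudogene DPY19L2P1 at 7.77 and 6.91 have close relatives in the genome that could share their probes, and both are uncertain. Of these 15 genes, 10 had a mean HT29 level above all 6 other arrays and 2 below, and 10 were above 7.50 on both HT29 arrays.

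Levels relative to the other lines were also counted over all genes past 1.5-fold, as a description only. Genes low in HT29 could pass the filter on dim genes through the other lines, and genes high in HT29 through HT29. A level near background also leaves more room to rise than to fall. Among the 209 higher genes, 81 (38.8%) had a mean HT29 level below all 6 arrays of the other lines, against 16.4% of all genes tested. Among the 65 lower genes, 30 (46.2%) had a mean HT29 level above all 6, against 18.6% of all genes tested. In the other direction, 35 of the higher genes (16.7%) lay above all others and 14 of the lower genes (21.5%) below.

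A set of genes picked after this was seen, with all other arrays above 10 and a mean HT29 level under 8.5, held 41 genes. Since these genes were picked by their levels on the same arrays, and passed the filter on dim genes through the other lines, their counts are a description only: 27 measured higher and 14 lower in HT29 (48.6% and 51.4% of all genes), and 8 passed 1.5-fold higher and 2 lower (1.24% and 0.384% of all genes). Only 18 of the 41 were above 7.50 on both HT29 arrays. The genes past 1.5-fold higher were HIP1, CNN3, FZD3, EXOC6B, MYBL1, SPIRE1, SOAT1 and ZC2HC1A. CNN3, an actin-binding calponin, measured 6.95 and 8.15 with the other arrays at 12.38 or more. FZD3, a Wnt receptor of the Frizzled family, measured 6.77 and 7.82, and SOAT1, which esterifies cholesterol, 7.09 and 7.85.

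Other genes of that set measured level or lower. HLTF, a helicase-like factor of DNA repair, stayed at 5.18 and 5.17 while the other arrays lay at 11.11 or more. ELOVL5, a fatty acid elongase, measured 6.76 and 6.26 with the other arrays at 13.04 or more, and FERMT2, a kindlin that activates integrins, 6.06 and 5.36. PEG10 at 7.05 and 7.34 and SGCE at 6.28 and 6.46 measured slightly higher, so genes far below the other lines were found on both sides.

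The reverse set, picked in the same way with a mean HT29 level above 11 and all other arrays under 8, held 25 genes, of which 8 measured higher and 17 lower, again a description of genes picked by level. MYRFL, AKR1B10 and ANXA10 passed 1.5-fold lower. ANXA10, an annexin of stomach epithelium, measured 11.57 and 10.93, and AGR2, a secretory pathway protein of goblet cells, 12.73 and 12.35. The fatty acid receptor gene FFAR4 at 13.20 and 13.05 and the protease gene MMP7 at 12.99 and 13.20 showed small differences.

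**Figure D3:**
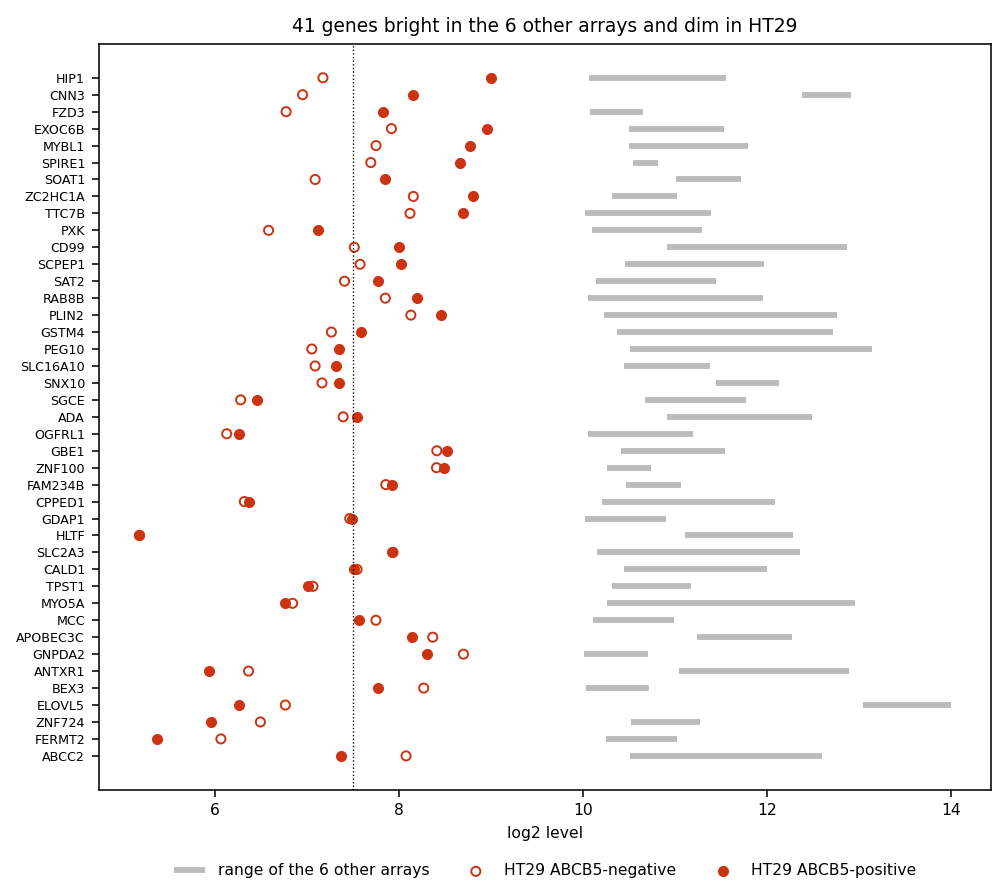
Log2 levels of the 41 genes with all 6 arrays of the other lines above 10 and a mean HT29 level under 8.5, sorted by the HT29 difference. Grey bars span the other arrays, open circles are HT29 ABCB5-negative and filled circles HT29 ABCB5-positive, and the dotted line marks 7.50. No HT29 value reaches the grey bars, and 27 of the 41 filled circles lie to the right of the open ones.

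Genes past 1.5-fold in HT29 with 1 sign in all 4 lines numbered 33 higher (0.195%) and 3 lower (0.0177%). Signs were counted at any level in the other lines, so some of them rest on background values. After TGM2, the largest with an array above 7.50 were GPC4, a cell-surface heparan sulfate proteoglycan, at 7.09 and 8.33, and S100A4, a calcium-binding protein of motile cells, at 9.90 and 11.10 (2.30-fold). S100A4 differed by 0.36, 0.38 and 0.06 in COLO741, SW620 and HCT116. PLAC8 measured 9.33 and 10.42 (2.12-fold), with 0.37, 0.25 and 0.14 in the other lines, of which COLO741 and HCT116 lay in the background range. SLFN5, a Schlafen gene that responds to interferon, measured 9.16 and 10.24 (2.12-fold), with 0.28, 0.58 and 0.20. For each of these genes HT29 had the largest difference and HCT116 the smallest.

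MYBL1, a MYB-family transcription factor, measured 7.75 and 8.77 (2.03-fold). AXL, a receptor tyrosine kinase, measured 8.52 and 9.53 (2.02-fold), with 1.12 in COLO741 and 0.11 and 0.05 in SW620 and HCT116. SLCO3A1, an organic anion transporter, measured 8.03 and 9.01 (1.97-fold). On the lower side the noncoding gene LINC00526 measured 8.67 and 8.02, with -0.32, -0.01 and -0.27 in the other lines. COLO741 and HCT116 lay in the background range for LINC00526.

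Genes past 1.5-fold in HT29 with the opposite sign in all 3 other lines numbered 15 higher (0.0887%) and 12 lower (0.071%). Here too, some signs in the other lines rest on background values. TFF3, the trefoil peptide that goblet cells secrete with mucus, measured 9.33 and 10.30 in HT29 (1.96-fold higher), against -0.44 in COLO741, -0.17 in SW620 and -0.30 in HCT116. TEX9 measured 7.53 and 8.66 (2.19-fold), against -0.41, -0.09 and -0.36. ZG16B, a secreted lectin-like protein, measured 9.50 and 10.29 (1.74-fold) in HT29 and was near background elsewhere. Also among the 8 largest were TENT5C at 6.97 and 7.86, TCEAL9 at 7.34 and 8.19, DENND5A at 8.24 and 9.07 and RTL8C at 9.18 and 10.00, beside CLEC3A.

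Among those lower in HT29, CXCR4, the receptor of the chemokine CXCL12, measured 10.97 and 10.30 (1.59-fold lower) where SW620 and HCT116 had 1.09 and 0.62. Both HCT116 values of CXCR4, 6.72 and 7.35, lay in the background range. CA2, the carbonic anhydrase of surface colonocytes, measured 11.05 and 10.32 (1.65-fold lower), against 0.10, 0.23 and 0.04. PLD1, a phospholipase of vesicle traffic, measured 10.21 and 9.52 (1.61-fold lower), and TPPP3, of the tubulin polymerisation family, 12.00 and 11.33 (1.59-fold lower). LINC01559 measured 7.87 and 7.21, and KRTAP21-1, MYRFL and GJC1 completed the 8 named. The limma difference from the other lines was -1.27 ± 0.38 (SE) for CXCR4 and 1.27 ± 0.18 for TFF3, with adjusted limma p-values of 1 and 0.930.

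The 43 gene lists are described by counts and medians, beside 48.6% of all genes above 0 and a median over all genes of -0.0049. Centring each array on its median moved all differences by -0.03, which left 39.7% of all genes above 0, so a list with a median near 0 has no firm direction. In 15 of the 43 lists the median changed sign under some setting, and none of these was further from 0 than 0.03. The lists below with larger medians kept their sign in all 6 settings tried.

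**Figure D4:**
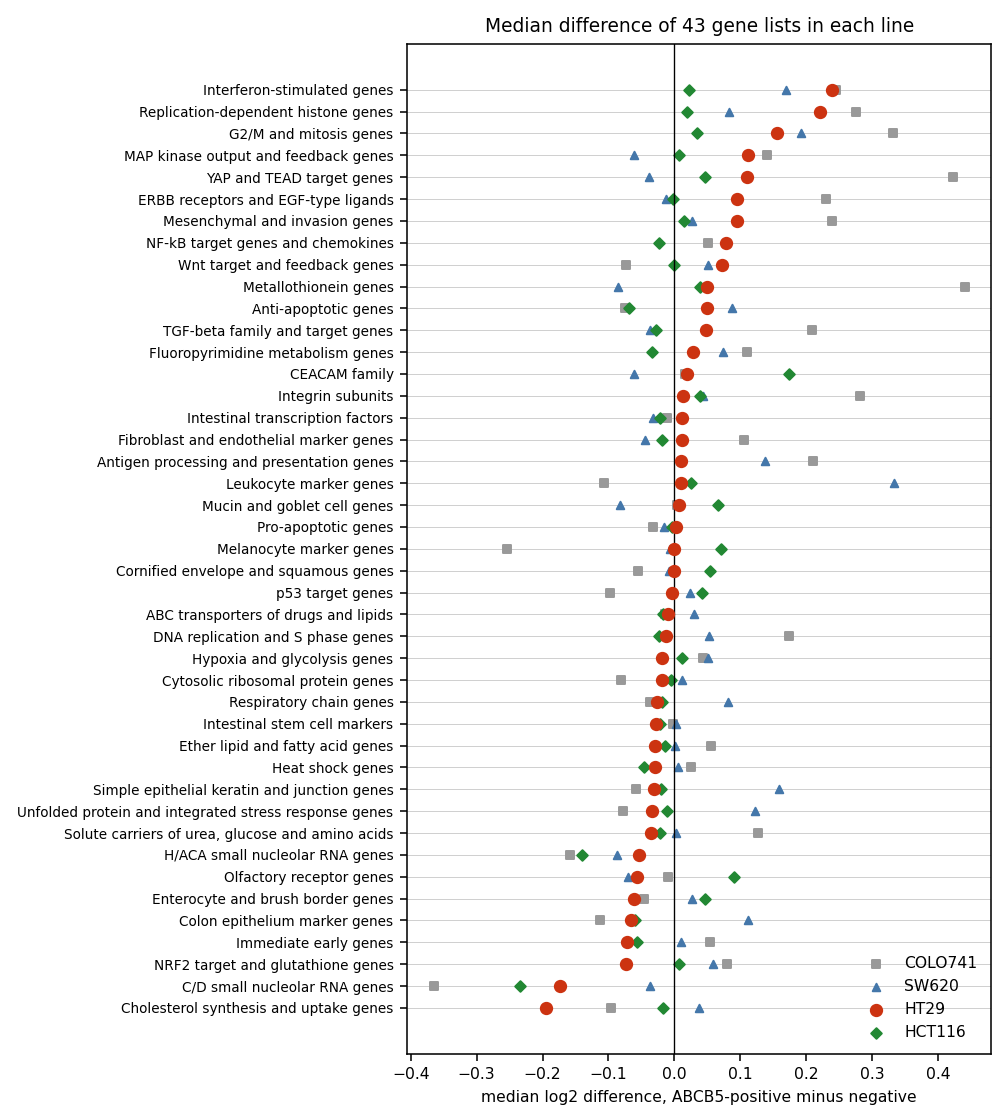
Median difference (log2, positive minus negative) of the 43 gene lists in each line, sorted by the HT29 median. Interferon-stimulated genes at 0.24 and histone genes at 0.22 lead the HT29 medians on the higher side, and cholesterol genes at -0.20 and C/D small nucleolar RNAs at -0.17 on the lower side. HCT116 medians lie closer to 0 for these 4 lists except the small nucleolar RNAs.

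Interferon-stimulated genes, which encode antiviral proteins, had the highest median in HT29. Of 38 tested, 31 measured higher and 7 lower, with 4 past 1.5-fold higher and 0 lower, and a median of 0.24. The medians of the same list were 0.25 in COLO741, 0.17 in SW620 and 0.02 in HCT116. IFITM2, a membrane protein that blocks virus entry, measured 10.64 and 11.26 (1.54-fold), with -0.28, -0.14 and -0.07 in the other lines. IFIT3, which binds foreign RNA with its relatives, measured 7.34 and 8.05, and IFIT1 measured 6.77 and 7.60. IFI44 measured 5.56 and 6.52, so its difference stands on values at background. Only 24 of the 38 genes were above 7.50 on both HT29 arrays.

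Other members of the interferon list were below 1.5-fold. BST2, the tetherin that holds virus particles at the cell surface, measured 10.65 and 11.08 and IFI6, a mitochondrial antiviral protein, 8.69 and 9.21. IFITM3 measured 8.90 and 9.32, whereas ISG15, a ubiquitin-like protein and a common marker of the response, stayed at 8.87 and 8.89. IFIH1, a sensor of double-stranded RNA, measured 7.51 and 7.22. The list thus leaned higher without all of its usual leaders. Antigen presentation genes, many of which respond to interferon too, had 11 of 20 higher and a median of 0.01, with the peptide transporter gene TAP1 at 8.52 and 8.69 and PSMB10, a subunit of the immunoproteasome, at 9.76 and 9.55.

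The core of the interferon-stimulated response element at which interferon-activated factors bind, written as GAAA, any 2 bases and GAAA, was sought on both strands of the 250 bases before the first listed start of each gene. It was found for 16 of the 29 interferon-stimulated genes with a promoter in the RefSeq table of GRCh38.p14 (55.2%), against 2.36% of 13184 promoters of genes tested. The median HT29 difference was 0.31 for the 16 with a match and 0.14 for the 13 without, of which 11 measured higher. Both promoters are shown 5′ to 3′ in gene direction, with matches on either strand in capitals, because they belong to members of the list that measured higher and hold 2 and 3 matches. A match is a description of these letters and not of binding.
IFIT1 promoter, chr10:89392373-89392622, plus strand: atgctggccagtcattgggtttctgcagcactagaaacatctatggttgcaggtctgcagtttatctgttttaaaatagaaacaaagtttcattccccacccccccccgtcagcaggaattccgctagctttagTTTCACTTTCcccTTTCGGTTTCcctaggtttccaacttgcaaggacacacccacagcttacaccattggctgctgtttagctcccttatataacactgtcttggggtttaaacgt
IFI6 promoter, chr1:27672193-27672442, minus strand: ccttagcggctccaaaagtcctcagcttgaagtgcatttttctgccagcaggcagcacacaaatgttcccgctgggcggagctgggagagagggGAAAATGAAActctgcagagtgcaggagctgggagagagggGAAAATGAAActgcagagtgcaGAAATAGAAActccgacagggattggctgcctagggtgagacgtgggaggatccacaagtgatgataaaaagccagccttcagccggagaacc

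Genes of mitosis, which cells switch on for the G2 and M phases of the cell cycle, leaned higher by small steps. Of 45 tested, all of them above 7.50 on both HT29 arrays, 39 measured higher and 6 lower, 0 passed 1.5-fold and the median was 0.16. The median was 0.33 in COLO741, 0.19 in SW620 and 0.03 in HCT116. UBE2C, the ubiquitin-conjugating enzyme of mitotic exit, measured 11.12 and 11.71. HJURP, the chaperone that brings CENPA to centromeres, measured 11.50 and 12.02 (1.43-fold), and TOP2A, the topoisomerase that untangles chromosomes, 12.94 and 13.37 (1.34-fold). Cyclin genes of the same phase stayed flat or lower, with CCNB1 at 12.57 and 12.52 and CCNB2 at 13.41 and 13.31.

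Genes of DNA replication, which mark S phase, showed no such lean. Of 47 tested, 21 measured higher and 26 lower (14 and 33 after centring), with a median of -0.01. The largest differences were POLE2, a subunit of DNA polymerase epsilon, at 10.90 and 10.56, ORC1, which marks replication origins, at 10.67 and 10.33, and the helicase subunit gene MCM6 at 11.64 and 11.41. In COLO741 the median of the replication list was 0.17.

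Promoters of mitotic genes often hold a CCAAT box and the letters TTTGAA of the cell cycle homology region. CCAAT was found for 30 of 38 mitotic genes with a promoter (78.9%), against 34.2% of all promoters, and TTTGAA for 20 of 38 (52.6%) against 9.58%. Within the list, genes with TTTGAA had a median of 0.11 and genes without it 0.16, so the letters did not separate larger from smaller differences. The promoters of HJURP and TOP2A, which are among the 3 members of largest difference, are shown with CCAAT and TTTGAA on either strand in capitals.
HJURP promoter, chr2:233854536-233854785, minus strand: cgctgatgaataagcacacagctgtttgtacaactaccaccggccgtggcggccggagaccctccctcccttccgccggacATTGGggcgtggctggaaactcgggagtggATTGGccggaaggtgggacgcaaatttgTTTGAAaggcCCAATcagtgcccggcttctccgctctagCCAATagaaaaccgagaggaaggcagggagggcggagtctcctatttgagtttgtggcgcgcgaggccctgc
TOP2A promoter, chr17:40417897-40418146, minus strand: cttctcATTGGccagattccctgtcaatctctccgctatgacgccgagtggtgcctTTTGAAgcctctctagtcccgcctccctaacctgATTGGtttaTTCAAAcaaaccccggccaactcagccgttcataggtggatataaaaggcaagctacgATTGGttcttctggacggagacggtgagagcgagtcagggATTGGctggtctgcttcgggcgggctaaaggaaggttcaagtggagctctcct

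Replication-dependent histone genes, which are expressed in S phase and whose messages end in a stem-loop in place of a poly(A) tail, leaned higher as well. Of 57 tested, 49 measured higher and 8 lower, with 3 past 1.5-fold higher, 0 lower and a median of 0.22. The medians were 0.28 in COLO741, 0.08 in SW620 and 0.02 in HCT116. H2BC10 measured 8.56 and 9.34 (1.72-fold), H2AC15 11.54 and 12.23 (1.62-fold) and H2BC3 9.58 and 10.19 (1.52-fold). Histone genes are near-identical copies, and H4C14 and H4C15 gave the same values on every array, so single members are uncertain.

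Cholesterol synthesis and uptake genes gave the most one-sided list on the lower side. Of 21 tested, 20 (95.2%) measured lower, against 51.4% of all genes, with 1 past 1.5-fold and a median of -0.20. In the other lines the median was -0.10 in COLO741, 0.04 in SW620 and -0.02 in HCT116. INSIG1, which holds the sterol sensor in the endoplasmic reticulum and is itself a target of the sterol-responsive factors, measured 10.40 and 9.74 (1.59-fold lower). MSMO1, a sterol demethylase, measured 12.09 and 11.58 (1.43-fold lower) and IDI1, an isomerase of the isoprenoid steps, 11.83 and 11.45 (1.30-fold lower).

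Lower values were found from the first to the last steps. HMGCS1, at its entry, measured 11.88 and 11.56, and MVK, mevalonate kinase, 9.28 and 8.97. SC5D, a late desaturase, measured 12.29 and 11.98 and DHCR7, the last reductase, 12.91 and 12.72. SREBF2, the sterol-responsive transcription factor, measured 10.67 and 10.42. SQLE, the squalene epoxidase, differed by only -0.10, and the single member measured higher was TM7SF2 at 10.29 and 10.37. In COLO741, INSIG1 was also lower at -0.57 and SQLE higher at 0.64, so the members went separate ways there.

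CCAAT, which binds a factor that works beside the sterol-responsive factors, was found for 15 of 19 cholesterol genes with a promoter (78.9%), against 34.2% of all promoters. The median HT29 difference was -0.20 for the 15 with CCAAT and -0.19 for the 4 without, so the letters did not separate larger from smaller differences. TCACNCCAC, a core of the sterol regulatory element, was found for 1 of 19 (5.26%) against 0.872% of all promoters. The promoters of INSIG1 and MSMO1, the members of largest difference, are shown with CCAAT on either strand in capitals.
INSIG1 promoter, chr7:155297628-155297877, plus strand: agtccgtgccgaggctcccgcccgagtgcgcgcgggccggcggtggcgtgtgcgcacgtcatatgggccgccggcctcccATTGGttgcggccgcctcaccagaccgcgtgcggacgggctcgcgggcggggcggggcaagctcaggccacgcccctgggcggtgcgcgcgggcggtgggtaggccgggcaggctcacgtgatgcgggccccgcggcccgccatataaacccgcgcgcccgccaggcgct
MSMO1 promoter, chr4:165327419-165327668, plus strand: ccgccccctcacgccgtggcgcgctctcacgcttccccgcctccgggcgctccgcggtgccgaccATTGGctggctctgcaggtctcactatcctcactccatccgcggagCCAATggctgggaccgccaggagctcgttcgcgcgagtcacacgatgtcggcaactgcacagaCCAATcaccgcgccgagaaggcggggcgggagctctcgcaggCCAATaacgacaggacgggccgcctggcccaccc

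**Figure D5:**
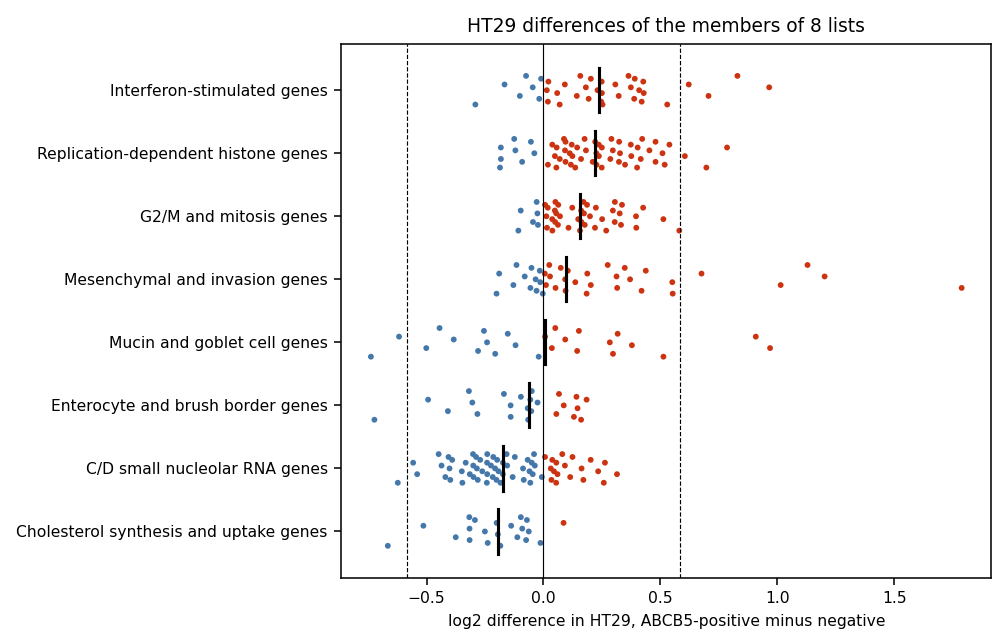
HT29 differences (log2, positive minus negative) of each member of 8 gene lists, 1 point per gene, with the list median as a black bar and 1.5-fold as dashed lines. Interferon-stimulated, histone and mitosis genes lie mostly to the right of 0 and cholesterol genes to the left with 20 of 21, whereas mesenchymal genes are spread by TGM2 at 1.79 and a few others.

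Genes of mesenchymal character and invasion leaned higher through a few members. Of 39 tested, 27 measured higher and 12 lower, with 5 past 1.5-fold higher and 0 lower, and the median was 0.09. After centring the split was 23 to 16. Beside TGM2, S100A4 and AXL, the members past 1.5-fold were TGFBI, a matrix protein induced by TGF-beta, at 9.84 and 10.97 (2.19-fold), and TNC, the matrix glycoprotein tenascin C, at 9.24 and 9.91. TGFBI differed by 0.70 in COLO741, -0.15 in SW620 and -0.25 in HCT116.

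The transcription factors that drive the epithelial-mesenchymal transition were not among the genes past 1.5-fold. SNAI1 measured 8.24 and 8.04, ZEB1 6.91 and 7.22, SNAI2 6.46 and 6.83 and TWIST1 8.58 and 8.57, of which ZEB1 and SNAI2 lie in the background range. VIM, the mesenchymal filament gene, was also in that range at 7.08 and 7.43. The epithelial side was steady: simple epithelial keratin and junction genes had 14 of 33 higher and a median of -0.03, and the cadherin gene CDH1 measured 13.25 and 13.19. Their largest members were KRT23 at 7.89 and 8.35, the claudin gene CLDN2 with a difference of -0.38 and GRHL2, an epithelial transcription factor, at 11.35 and 11.71.

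TGF-beta family and target genes had 18 of 31 higher and 4 past 1.5-fold higher, 0 lower, with a median of 0.05. TGFB1, the ligand, measured 8.33 and 9.52 (2.28-fold), against 0.30, -0.10 and -0.08 in COLO741, SW620 and HCT116. TGFB2 measured 10.99 and 11.64 (1.57-fold), and PMEPA1, a feedback gene that dampens the pathway, 11.13 and 11.86 (1.66-fold). The receptor gene TGFBR1 measured 10.01 and 10.34, and ID1 and ID2, also on the list, differed by -0.14 and -0.15. TGFBI, with a difference of 1.13, is on the list as well. Activity of the pathway was not tested. TGFB2 reached 2.57 in COLO741 and -0.80 in SW620.

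YAP and TEAD target genes, which respond to cell contact and stiffness, had 15 of 23 higher and 3 past 1.5-fold higher, with a median of 0.11 against 0.42 in COLO741. AXL, NT5E and TGFB2 were the 3 past 1.5-fold, and NT5E, the ectonucleotidase CD73, measured 10.82 and 11.75 (1.91-fold). Of 3 usual readouts, CCN1 and CCN2 had differences of -0.19 and -0.16, from 9.19 for CCN1 and 10.22 for CCN2 on the negative array, and ANKRD1 had a difference of 0.42 in the background range, with 0.90, 0.35 and 0.27 in the other lines. Integrin subunits had 12 of 23 higher and a median of 0.01. ITGB6, an epithelial subunit that activates TGF-beta, measured 10.39 and 10.94 (1.46-fold) and was higher in all 4 lines, with 0.24, 0.35 and 0.40 in the others. In COLO741 and HCT116, however, ITGB6 lay in the background range, at 6.72 or less. ITGA2 measured 11.91 and 12.24 and ITGAM 7.99 and 7.48.

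Output and feedback genes of the MAP kinase pathway had 19 of 23 higher and 4 lower, 0 past 1.5-fold, with a median of 0.11 against 0.14 in COLO741, -0.06 in SW620 and 0.01 in HCT116. PHLDA1 measured 11.72 and 12.23 (1.43-fold), the cytokine gene LIF 8.65 and 9.10 (1.37-fold) and ETV1, an ETS transcription factor, 8.45 and 8.88 (1.35-fold). EGFR, the epidermal growth factor receptor, was the member of the receptor and ligand list past 1.5-fold, at 10.80 and 11.49 (1.62-fold), with 0.51 in COLO741, 0.43 in SW620 and -0.14 in HCT116. The ligand genes HBEGF and BTC measured 10.67 and 10.21 and 7.65 and 7.89, and 7 of 13 genes of that list were higher.

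Immediate early genes, which answer growth factors within minutes and also the handling of cells, went the other way. Of 24 tested, 5 measured higher and 19 lower, 0 past 1.5-fold, with a median of -0.07. JUN measured 11.95 and 11.43 (1.43-fold lower), KLF4 9.55 and 9.27 and EGR1 12.37 and 12.11. EGR1 was lower in all 4 lines, at -0.79, -0.56 and -0.15 in COLO741, SW620 and HCT116.

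NF-kB target genes and chemokines had 25 of 34 higher and 9 lower, 0 past 1.5-fold, with a median of 0.08 and 21 higher after centring. ICAM1, an adhesion molecule for leukocytes, measured 7.98 and 8.52, and the chemokine genes CXCL16 and CXCL1 measured 9.63 and 10.00 and 8.59 and 8.96. CXCL16 was 1.73 higher in SW620. The steps in HT29 were thus small beside that.

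Differentiation genes of the gut moved in parts. Among mucin and goblet cell genes, 13 of 25 measured higher and 12 lower, with 2 past 1.5-fold in each direction and a median of 0.01. The higher ones were TFF3 and MUC2, the main secreted mucin of the colon, at 8.35 and 9.26 (1.88-fold), with -0.10, -0.07 and 0.08 in the other lines. The lower ones were REG4, a secreted lectin of enteroendocrine and goblet-like cells, at 9.03 and 8.30 (1.67-fold lower), and RETNLB at 7.49 and 6.87, at background. SPDEF and ATOH1, transcription factors of the secretory lineage, measured 11.08 and 11.40 and 9.27 and 9.57. The membrane mucin gene MUC13 measured 12.01 and 11.51. Goblet products were thus found on both sides, and the list kept no direction under the other scalings.

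Enterocyte and brush border genes had 8 of 24 higher and 16 lower, with 1 past 1.5-fold lower, CA2, and a median of -0.06. CDH17, the intestinal cadherin, measured 7.91 and 7.42, and the glucose transporter gene SLC5A1 9.21 and 8.80. The colon epithelium markers went with them, at 3 of 14 higher and a median of -0.07. GPA33, a gut surface antigen, measured 7.84 and 7.34, and CEACAM5, the carcinoembryonic antigen, 11.22 and 10.77 (1.36-fold lower). In the CEACAM family as a whole 6 of 11 were higher (4 after centring), with CEACAM6 at 10.83 and 10.98 and CEACAM19 at 7.94 and 8.06.

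Transcription factors of the intestine had 9 of 17 higher (6 after centring) and a median of 0.01, with HNF4G at 10.53 and 10.23, GATA6 at 11.76 and 11.49 and FOXA2 at 10.01 and 9.86. Cornified envelope and squamous genes had 19 of 38 higher, and TRIM29, at 11.85 and 12.29 (1.36-fold), was higher in all 4 lines, by up to 1.37 in HCT116. KLK10 measured 13.30 and 13.62 and SPRR1B 8.11 and 8.51. SPRR2D had the largest lower difference of that list, at 5.99 and 4.81, both at background.

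Stem cell markers of the intestine had 8 of 23 higher and 15 lower, 0 past 1.5-fold, with a median of -0.03. LGR5, the receptor that marks crypt base stem cells, measured 10.30 and 9.86 (1.35-fold lower), with -0.00 in COLO741, 0.00 in SW620 and -0.16 in HCT116. CD24 measured 13.32 and 12.99 and ALCAM 11.54 and 11.27. Wnt target and feedback genes had 12 of 22 higher and a median of 0.07, with the feedback inhibitors NKD1 at 8.27 and 8.53 and NKD2 at 8.19 and 8.42 and the transcription factor gene SOX4 at 9.88 and 10.11.

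ABC transporters, the family of ABCB5, had 14 of 30 higher (17 with quantile normalization, 10 after centring) and a median of -0.01. ABCC2, an exporter of conjugated drugs and bilirubin, passed 1.5-fold lower at 8.07 and 7.37, the latter in the background range, with 0.64 in COLO741 and -0.20 in SW620. ABCG2, the breast cancer resistance protein, measured 11.29 and 10.93 (1.28-fold lower) with the other arrays at 7.59 or less. ABCG1, a cholesterol exporter, measured 7.46 and 7.76. Solute carriers of urea, glucose and amino acids had 12 of 29 higher (9 after centring) and 2 past 1.5-fold higher, SLC14A1 and SLC7A2, a cationic amino acid transporter, at 8.74 and 9.63 (1.86-fold). SLC7A7 measured 10.16 and 9.69.

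The series title ties ABCB5 to resistance against apoptosis. Anti-apoptotic genes had 11 of 17 higher and 6 lower (9 and 8 after centring), 0 past 1.5-fold, with a median of 0.05. The best-known guardians were flat: MCL1 measured 12.39 on both arrays, BCL2L1 13.12 and 13.20 and XIAP 10.00 and 9.98. Among members with an array above 7.50 the largest differences were AVEN at 11.06 and 10.74, BCL2L10 at 7.32 and 7.62 and NAIP at 7.58 and 7.81, while BCL2A1, at 6.15 and 6.65, differed by more within the background range. Pro-apoptotic genes had 18 of 34 higher (13 after centring), 0 past 1.5-fold, and a median of 0.00. TNFSF10, the death ligand TRAIL, measured 9.65 and 9.28 (1.29-fold lower) and PYCARD, the inflammasome adaptor, 11.15 and 10.79 (1.28-fold lower), the latter lower in all 4 lines. FAS, a death receptor, measured 8.15 and 8.48.

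Target genes of p53 had 14 of 28 higher and a median of -0.00, with SESN1 at 9.55 and 9.08 and GADD45A at 9.46 and 9.72. HT29 carries a mutant p53, as is well known of this line. Genes of fluoropyrimidine metabolism had 13 of 22 higher (10 after centring) and a median of 0.03. DUT, which breaks down dUTP, measured 10.10 and 10.49 (1.32-fold), GGH, a hydrolase of folates and antifolates, 8.91 and 9.24 and DPYD, which degrades fluorouracil, 8.87 and 9.19.

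NRF2 target and glutathione genes, which answer oxidative and electrophilic stress, had 9 of 35 higher and 26 lower, with 1 past 1.5-fold higher and 2 lower and a median of -0.07. With quantile normalization the split was 14 to 21 and after centring 6 to 29. AKR1B10, an aldo-keto reductase, measured 13.01 and 12.27 (1.68-fold lower) and AKR1C1 11.03 and 10.55 (1.40-fold lower), though the mean of its probe sets gave only -0.11. AKR1C1 belongs to a family of near-identical copies and is uncertain. The 1 gene past 1.5-fold higher, GSTM1, lay at background at 6.37 and 7.02. The metallothionein list, which holds the zinc transporter gene SLC30A1 beside 10 metallothioneins, had 7 of 11 higher, with SLC30A1 at 9.71 and 9.81, MT2A at 13.15 and 13.56 (1.33-fold) and MT1X at 11.31 and 11.56, whereas MT1M measured 7.05 and 6.69, at background.

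Lists of other stress responses stayed near 0. Genes of the unfolded protein and integrated stress responses had 10 of 32 higher (6 after centring) and a median of -0.03, with DDIT3, the stress factor CHOP, at 9.68 and 9.35. Hypoxia and glycolysis genes had 15 of 34 higher (10 after centring) and a median of -0.02, with PFKFB4 at 8.07 and 7.74, PFKFB3 at 10.79 and 10.53 and PFKL at 10.78 and 11.04. Heat shock genes had 7 of 18 higher (5 after centring), with HSPB1, a small heat shock protein, at 12.84 and 13.33 (1.40-fold) and the mitochondrial chaperonin gene HSPE1 at 11.60 and 11.34. None of these lists had a member past 1.5-fold.

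Among metabolic lists, ether lipid and fatty acid genes had 11 of 31 higher with AGMO as the 1 past 1.5-fold, PLIN2, of lipid droplets, at 8.13 and 8.46 and the desaturase gene FADS2 at 7.74 and 7.42. Respiratory chain genes had 15 of 38 higher (9 after centring) and a median of -0.03, with CYCS, cytochrome c, at 11.13 and 10.89 and UQCRC1 at 10.24 and 10.44. Their spread was small, from -0.23 to 0.19.

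C/D small nucleolar RNAs, which guide methylation of ribosomal RNA and come from introns of host genes, leaned lower. Of 69 tested, with 43 others left out as dim, 19 measured higher and 50 lower, with 1 past 1.5-fold lower, SNORD20 at background, and a median of -0.17. The medians were -0.37 in COLO741, -0.04 in SW620 and -0.23 in HCT116. SNORD58A measured 9.20 and 8.66 (1.45-fold lower), SNORD79 10.96 and 10.51 (1.36-fold lower) and SNORD77 7.88 and 7.45. H/ACA small nucleolar RNAs, which guide pseudouridylation, had 24 of 60 higher and a median of -0.05, with SNORA5B at 7.75 and 7.28, SNORA27 at 10.59 and 10.16 and SNORA80E at 9.03 and 9.40.

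Cytosolic ribosomal protein genes had 28 of 65 higher (35 with quantile normalization, 22 after centring) and a median of -0.02 at a median level of 13.6 on both arrays. RPL22 stood out among them, at 9.05 and 8.44 (1.53-fold lower), with -0.12, 0.18 and -0.01 in the other lines. Olfactory receptor genes, the guide to background, had 64 of 173 higher, a median of -0.06 and 1 past 1.5-fold, OR51E1, a member that is also used outside the nose, at 8.54 and 9.53 (1.98-fold).

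By chromosome, the medians in HT29 stayed between -0.05, for chromosome 13 with 291 genes, and 0.04, for chromosome 19 with 1258 genes. In COLO741 they reached 0.17 for chromosome 4 and -0.11 for chromosome 14. Promoter composition differed between the 2 directions in HT29. Of the genes past 1.5-fold lower, 42 had a promoter in the table, with a median of 5 CG pairs in 250 bases, against 17 for 158 genes past 1.5-fold higher and 19 over all 13184 promoters. In SW620 the medians were 11 for lower and 12 for higher genes, in HCT116 9 and 6, and in COLO741 17 and 19.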

How the data were processed

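RNA of sorted cells was labelled and hybridised to whole-transcript arrays. The authors' deposited table holds log2 values for 33297 probe sets on 8 arrays, made with Affymetrix Expression Console per the submitters' processing notes, with version and normalization not given in the sources used here. That the values are log2 was read from the range of 2.99 to 15.24. Of the probe sets, 19460 name 1 gene in GEO's platform annotation, 1754 several and 12083 none, and 19429 matched a current gene by identifier. Each of 18417 genes was represented by its brightest probe set by mean level. A gene was left out when its mean was under 5.73, the median of the olfactory receptor probe sets, which removed 1507 and left 16910. The number of arrays limits the precision.

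Calls within HT29 are 1.5-fold on the deposited values, with no test. HT29 was set against the other lines with limma 3.58.1 in R 4.3.3 on the 4 within-line differences. This keeps the line as a block, since both arrays of a pair come from 1 line (residual df 2, Benjamini-Hochberg adjustment). The eBayes step of limma draws the variance of each gene toward a value shared by all genes tested (prior df 3.71). The procedure was tested on simulated data in which HT29 varied like the other lines, so that assumption itself was not tested. Named genes are ABCB5, the 15 largest differences per direction, members of each list, taken from its 3 largest, and up to 8 genes per direction of 1 sign or of opposite sign across lines, each with the brighter HT29 array above 7.50. Further list members, IFI44, SPRR2D, SNORD20, RETNLB, GSTM1, PEG10, SGCE, ANKRD1, BCL2A1 and MT1M among them, were named after their values were seen. Members, lists and tests were chosen with earlier results of these data known. Promoters came from RefSeq.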

Additional observations from a re-analysis of the deposited data

Results flagged for a closer look

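The medians of the 43 gene lists were compared over the 4 lines, and a line was marked where its gap to the nearest other line, divided by the range, passed Dixon's 95% critical value for 4 values. This marked 3 lists, 0 of them with HT29 as the extreme line, and chance marks about 1 in 20 lists, or 2.15 of 43. Integrin subunits had a median of 0.28 in COLO741, ABC transporters 0.0296 in SW620 and respiratory chain genes 0.0817 in SW620. In HT29 the same lists had medians of 0.01, -0.01 and -0.03.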

How the results depend on the processing

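Without replicates in HT29 the values are limited to 1 array a side, and dim genes add to the counts. With genes under 7.50 left out, the genes past 1.5-fold lower numbered 37 in place of 65, those also beyond the other lines 30 in place of 53, and the mucin and goblet median was 0.10. A 2-fold threshold left 46 genes higher and 4 lower. With quantile normalization the medians were 0.0422 for intestinal transcription factors, -0.0123 for stem cell markers, 0.0182 for pro-apoptotic genes and 0.00409 for hypoxia genes. With each array centred they were -0.0207, -0.0602, -0.0309 and -0.0523 in that order, and -0.0432 for ABC transporters. Of 215 list medians recomputed, 205 moved by less than the spread of the other lines and 20 changed sign, and of 501 gene values 497 did and 0 changed sign. The exceptions were HIP1 at 0.98, KRTAP21-1 at -0.76 and AKR1C1 at -0.11 with the mean of probe sets, and SOX4 at 0.20 after centring.

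Leaving out 1 other line in turn gave 176 to 194 genes higher and beyond the rest and 56 to 59 lower. In limma 0 genes passed in any of these fits, with 391 to 664 at an unadjusted p under 0.05 and a lowest adjusted p of 0.0509 without COLO741, 0.151 without SW620 and 0.143 without HCT116. Without the line as a block, which drops the pairing of arrays, limma called 0 genes, 37 had an unadjusted p under 0.05 and the lowest adjusted p was 0.439. With the other scalings, filters and variance settings limma also called 0, with lowest adjusted p-values from 0.0521 to 0.459.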
